A study of Danio rerio with 36 samples.

Results

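The genes described here rose in the non-GFP cells (C) of the zebrafish eye between 60 and 192hpf (hours post fertilization) and reached similar levels in the GFP cells (MG) by 192hpf. They were chosen on the log2 CPM of the deposited table, where CPM is the number of reads of a gene per 1000000 reads of a column. In C, the mean of the 3 columns had to be at least 4 higher at 192hpf than at 60hpf on the log2 scale, had to lie between these at 96hpf, and had to be at least 5 at 192hpf. At 192hpf, MG minus C had to lie between -1 and 1, and 7 identifiers were left out by the rule, 0 of which met its other conditions. Of 31540 genes, 13 met this rule.

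RNA-seq libraries were made from MG and from C at 48, 60, 72, 96, 120, and 192hpf, with 3 columns of each fraction at each stage. All animals were wild type fish of the Tg(GFAP:GFP) line, in which a gfap promoter drives GFP in Müller glia, and all embryos had been kept in phenylthiourea, a blocker of pigment formation. Whole eyes of a stage were pooled and dissociated before sorting, so C can hold every cell of the eye without GFP, from neurons to lens, cornea, and pigment epithelium. No treatment or mutation separates the 12 groups, only the fraction and the stage. A level in such pooled cells cannot tell fewer cells of a type from less RNA per cell.

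Several of the 13 genes belong to well described systems. The circadian clock is a feedback loop in which Clock and Bmal proteins activate their own repressors, the Per, Cry, Nr1d, and Bhlhe40/41 proteins, as well as output factors such as Dbp, Tef, and Hlf, and it runs in most zebrafish tissues, including the retina, and is set by light. Selective autophagy removes tagged proteins and organelles through receptors such as p62. Cone photoreceptors answer light by a phosphodiesterase that inhibitory subunits hold in check in the dark. The members were dbpb and bhlhe41 (clock), sqstm1 (p62), mrnip (a partner of the MRN DNA repair complex in human cells), selenop (the selenium carrier of plasma), BCO2 (a carotenoid-cleaving oxygenase), ptgdsb.1 (a lipocalin-type prostaglandin D2 synthase), PDE6H (the inhibitory subunit of the cone phosphodiesterase), cbx7a (a Polycomb chromobox protein), cldn2 (a claudin of tight junctions), grb10a (an adaptor of insulin and growth factor receptors), lrrfip1a (a leucine-rich repeat flightless-interacting protein), and si:ch211-132b12.7, for which no role is given here. The symbols PDE6H and BCO2 are those of the identifier table and each matched no single zebrafish gene of RefSeq, so which zebrafish copy they stand for was not settled and their roles are those of the human genes.

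Outside 60hpf MG the columns held 1311849 to 8889892 reads on genes, whereas the 3 columns of 60hpf MG held 63463 to 90846, so that the floor of 3 reads was 38.0 CPM there and 2 of the 13 genes lay above it. In 9 of the 12 groups, the columns differed from each other by no more than about the sampling of reads, with chi-square ratios of 0.0686 to 1.03, where 1 is the value of independent draws from 1 library. They were therefore counted as 1 library a group, with no replicate check of a difference: the spread between columns is technical, and a gene was called higher or lower when its mean CPM differed at least 2-fold between libraries, with values under 3 reads of the shallower library set to that floor. At 48hpf, C column 3 matched MG columns 1 and 2 (ratios 0.679 and 0.990) and MG column 3 matched the 72hpf MG columns, so 48hpf and 60hpf MG were used for levels only. For marker sums, 48hpf takes in these columns that did not match their labels, so the fractions are not compared there. The summed CPM of 11 measured Müller glia marker genes was higher in MG than in C at each stage from 60 to 192hpf. C held 646 to 4355 CPM of them. The summed CPM of cone markers was also higher in MG at each stage from 60 to 192hpf. At 96hpf it was 209519 CPM in MG, against 6916 CPM in C. Such sums weigh abundant genes most, and single markers did not all follow them. At 120hpf, 4 of 21 cone markers above the floor were called higher and 8 lower in MG than in C. Of 9 Müller glia markers above the floor, 3 were called higher and 4 lower there. At 96hpf, 19 of 23 cone and 6 of 9 Müller glia markers were called higher, and 2 and 1 lower. Of all genes, 7496 (23.8%) were listed at 0 in all 36 columns, among them pcna and mki67, which dividing cells use, so a 0 says only that a gene is listed at 0.

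The rule fixed the values of C at 60, 96, and 192hpf and of MG minus C at 192hpf, which are given as a description. The log2 CPM of C at 192hpf ran from 5.39 in BCO2 to 10.10 in dbpb. The differences between 192 and 60hpf ran from 4.11 in cbx7a to 9.06 in si:ch211-132b12.7, with ptgdsb.1 at 8.31, PDE6H at 8.12, and bhlhe41 at 7.34. MG minus C at 192hpf ran from -0.64 in grb10a to 0.86 in cldn2. Just inside the threshold on this difference in stage were cbx7a (4.11) and lrrfip1a (4.14), and just outside were cyp2ad3 (3.95) and INPP4A (3.89). On the level at 192hpf, BCO2 (5.39) and PDE6H (5.996) lay just inside, and aanat1 (4.78), which encodes an enzyme of melatonin synthesis, and ubap1la (4.69) just outside. On MG minus C, cldn2 (0.86) and mrnip (0.79) lay just inside the upper limit and pde6b (1.06), a rod phosphodiesterase subunit, and MT1X (1.09) just outside, and grb10a (-0.64) and BCO2 (-0.54) just inside the lower limit and fam169aa (-1.05) and zgc:194398 (-1.13) just outside. Of 218 genes that met the conditions on C alone, 48 were higher in MG and 157 lower in MG than the window allowed.

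The 3 stages of the rule did not describe the whole course. At 72hpf, 9 of the 13 genes were lower in C than at 60hpf, and at 120hpf, 10 of 13 were lower in C than at 96hpf. These counts take any difference in mean CPM, and ptgdsb.1 lay under the floor in C at both 60 and 72hpf. All genes went the same way in the median, with log2 differences of -1.22 for 72 over 60hpf and -0.99 for 120 over 96hpf. Relative to 60hpf, 72hpf C was called higher in 3 and lower in 5 of the 11 measured members, against 12.2% and 55.3% of all genes tested. The rule asked for low levels in 60hpf C, so this contrast with all genes is a description. In MG, 11 of 13 were lower at 72 than at 96hpf and 9 of 13 were lower at 120 than at 96hpf, again by any difference. The medians of all genes in MG were 0.44 for 96 over 72hpf and -0.76 for 120 over 96hpf. The share of all genes lower by any difference was counted in neither fraction, so the member counts by any difference are a description. The highest level in MG was at 192hpf in 10 genes and at 120hpf in 3 (lrrfip1a, grb10a, and BCO2). In C it was likewise at 192hpf in 10 and at 120hpf in 3 (selenop, lrrfip1a, and grb10a). The rule put C at 192hpf no lower than at 60 and 96hpf, and MG at 192hpf near C. These counts of highest stages are therefore a description. Scaling of the columns by trimmed means of the log ratios (TMM) in place of their totals moved the median of all genes by 1.08 for 72 over 60hpf in C and gave 5 members higher and 3 lower there, with a median over the members of 0.68 in place of -0.55. The share of all genes called under TMM scaling was not counted there.

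**Figure D1:**
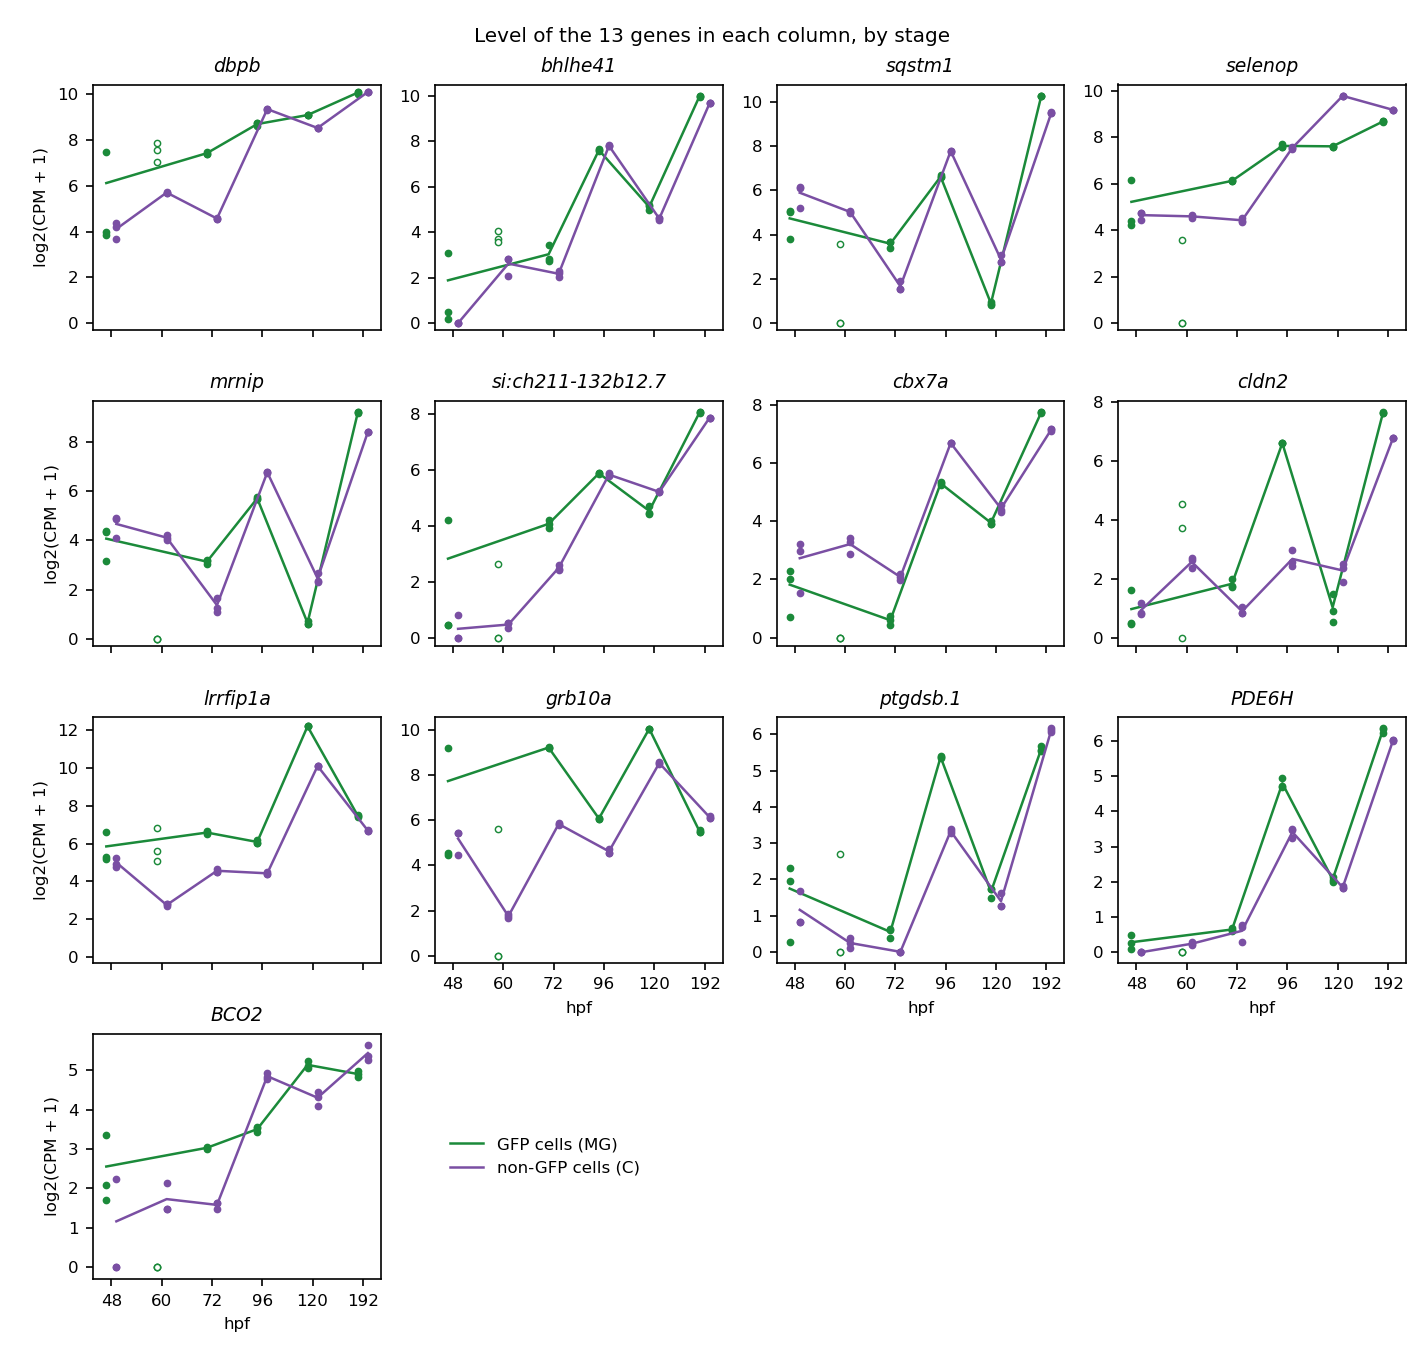
Level of each of the 13 genes as log2(CPM + 1) at 48, 60, 72, 96, 120, and 192hpf, in MG (green) and in C (violet). Points are the 3 columns of a group, which outside 48hpf and 60hpf MG are 1 library, and lines join the mean CPM. Open points are the shallow 60hpf MG columns, which the line skips. In bhlhe41, sqstm1, mrnip, cbx7a, ptgdsb.1, and PDE6H both lines stand high at 96 and 192hpf and low at 72 and 120hpf, and in lrrfip1a and grb10a both stand highest at 120hpf.

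In C at 96hpf, 11 of the 13 genes were called higher and 1 (grb10a) lower than at 72hpf, where 56.6% of all genes were higher and 10.9% lower. The median log2 difference was 3.66 over the members and 1.26 over all genes. In C at 120hpf, 3 were called higher and 6 lower than at 96hpf, where 13.3% of all genes were higher and 49.6% lower, with medians of -0.83 and -0.99. The 2 comparisons share the 96hpf library, which the rule used, so nothing is read from how they go together. At least 2-fold above both 72 and 120hpf at 96hpf were 6 of the 13 genes in C, near the 41.5% of all genes. With TMM scaling, the same 6 genes were so against 19.1% of all genes, and the median of all genes moved by -0.98 for 96 over 72hpf and by 0.75 for 120 over 96hpf. The members' median for 120 over 96hpf turned to 0.05 there. The TMM factors were 0.552 to 0.745 in all columns of 72 and 120hpf and 0.955 to 1.91 in those of 60, 96, and 192hpf, and the median of all genes alternated between these stages as well.

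In MG, where the rule used none of these stages, 10 of the 13 genes were called higher at 96 than at 72hpf and 1 (grb10a) lower, against 40.2% and 26.4% of all genes. The medians were 2.71 over the members and 0.44 over all genes, and TMM scaling gave 8 higher and 2 lower, with no share of all genes counted under that scaling. At 120hpf, 3 were called higher and 8 lower than at 96hpf, against 25.4% and 46.6% of all genes, with medians of -1.41 and -0.76, and TMM scaling gave 4 and 6. In MG, 8 of 13 genes stood at least 2-fold above both 72 and 120hpf at 96hpf, against 35.5% of all genes, and under TMM scaling 6 against 29.0%. TMM scaling moved the median of all genes by -0.44 for 96 over 72hpf and by 0.55 for 120 over 96hpf.

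**Figure D2:**
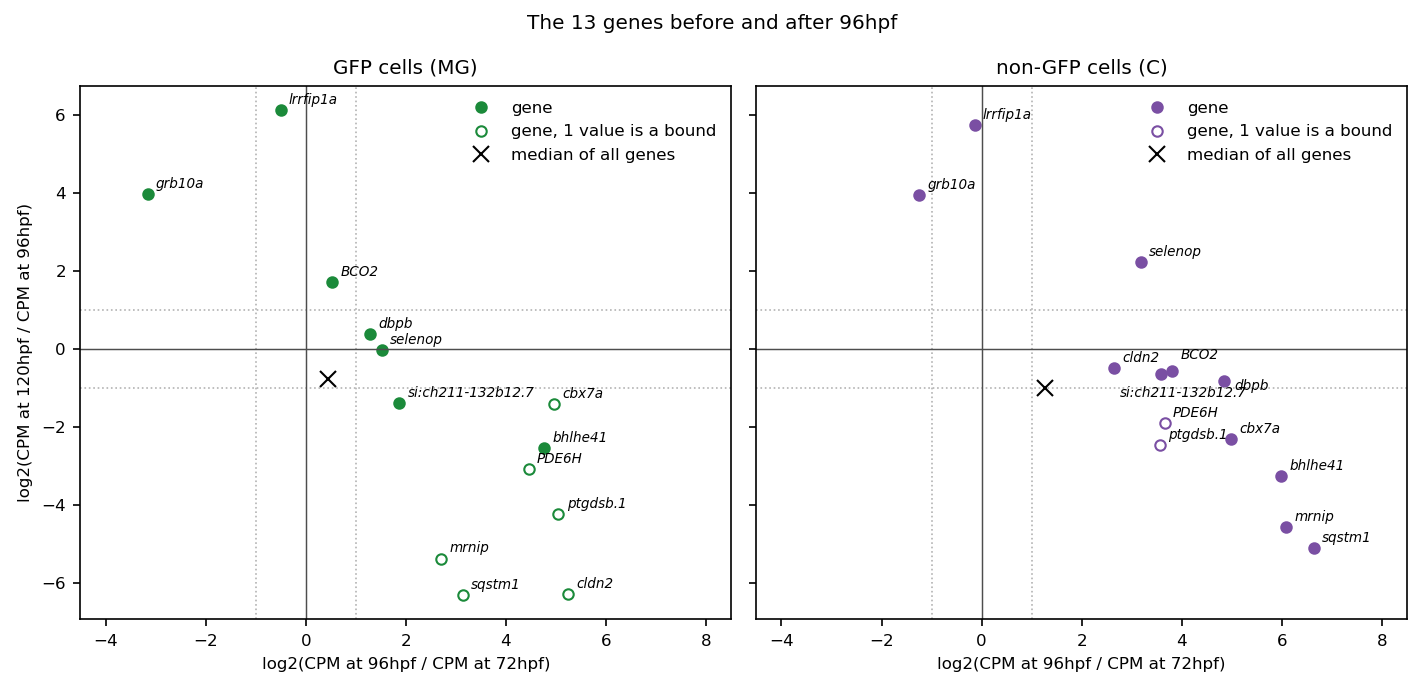
Log2 ratio of CPM at 96 over 72hpf (x axis) and at 120 over 96hpf (y axis) for the 13 genes in MG (left) and C (right). The cross is the median of all genes tested, dotted lines mark 2-fold, open points have 1 group under the floor, and both axes of a panel share the 96hpf library. The genes at the lower right, such as sqstm1 and bhlhe41, were at least 2-fold above both neighbouring stages at 96hpf, and lrrfip1a and grb10a at the upper left were highest at 120hpf.

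To ask whether C still differed between later and earlier stages in libraries that the rule did not use, 120hpf was compared with 72hpf. In C at 120hpf, 12 of the 13 genes were called higher and 0 lower than at 72hpf, against 27.7% and 21.6% of the 15093 genes tested. The median log2 difference was 2.71 over the members and 0.12 over all genes. Under TMM scaling all 13 were at least 2-fold higher, with a median of 2.43, and the median of all genes moved by -0.24. The floor was not rescaled there, so the call of ptgdsb.1, under the floor in 72hpf C, came from that setting. All 13 genes had higher CPM in every column of 120hpf C than in any column of 72hpf C. The columns of a group are 1 library and the share of all genes so separated was not counted, so this is a description. Without TMM scaling the gene not called was ptgdsb.1, which had 1.41, 1.43, and 2.07 CPM in 120hpf C. It was listed at 0 in all columns of 72hpf C, which makes it at least 1.69-fold higher against the floor of 3 reads.

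In MG at 120hpf, 8 of the 13 genes were called higher and 3 (sqstm1, mrnip, and cldn2) lower than at 72hpf, against 22.5% and 37.7% of the 15926 genes tested. The medians were 1.67 and -0.40, and TMM scaling, which moved the median of all genes by 0.17, gave 9 higher and 3 lower.

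**Figure D3:**
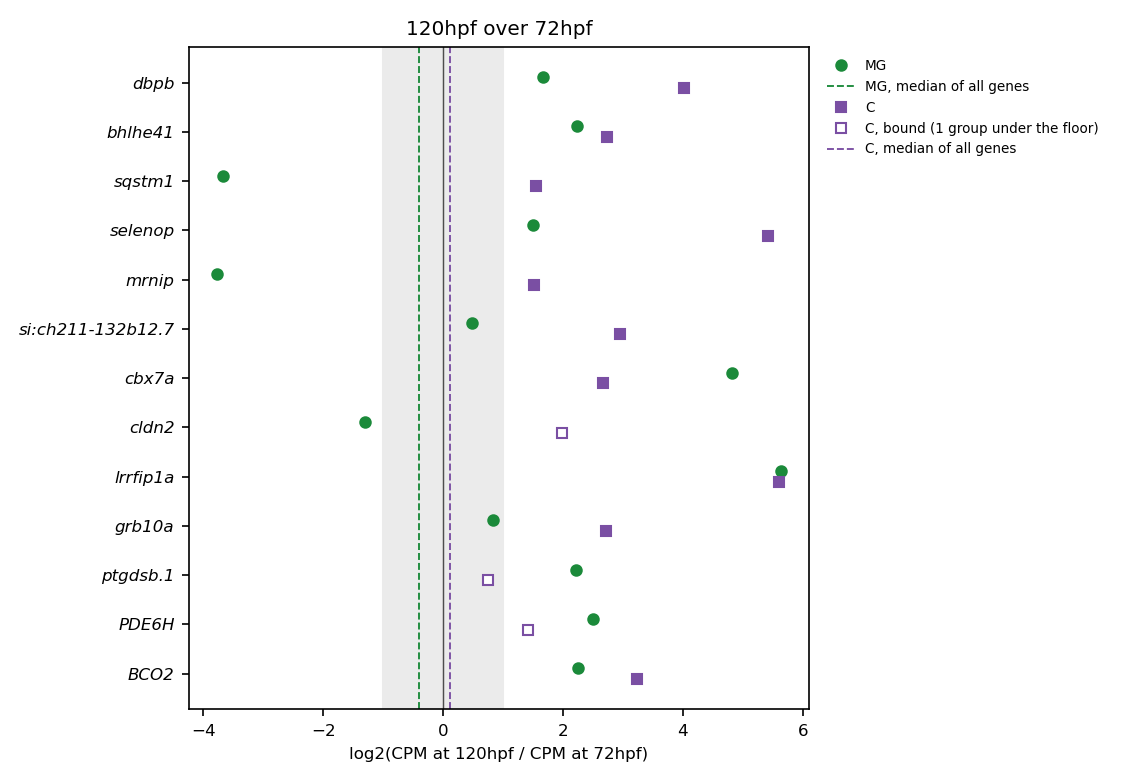
Log2 ratio of CPM at 120hpf over 72hpf for each of the 13 genes in MG (circles) and C (squares), with dashed lines at the median of all genes (-0.40 in MG and 0.12 in C) and a grey band for less than 2-fold. Open squares have 72hpf C under the floor. In C every square lies right of 0, and in MG sqstm1, mrnip, and cldn2 lie left of it.

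Of the clock genes, dbpb, an output factor that binds D-box elements, had the highest CPM of the members in C at 192hpf. In MG it had 545, 544, and 549 CPM at 120hpf, against 168, 167, and 179 CPM at 72hpf, a 3.19-fold difference. In C it had 373, 369, and 364 CPM at 120hpf, against 22.8, 22.3, and 23.2 CPM at 72hpf, a 16.2-fold difference. The columns of the stages did not overlap in either fraction, and dbpb was already higher in MG than in C at 72hpf. Over the whole course, MG averaged 171, 415, 546, and 1080 CPM at 72, 96, 120, and 192hpf, and C averaged 51.2, 22.8, 654, 369, and 1100 CPM at 60, 72, 96, 120, and 192hpf, so that the level followed the order of these stages in MG and not in C.

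The clock repressor bhlhe41 was listed at 0 in all columns of 48hpf C. It averaged 7.15, 193, 33.5, and 1004 CPM in MG at 72, 96, 120, and 192hpf, and 5.13, 3.50, 221, 23.1, and 808 CPM in C at 60, 72, 96, 120, and 192hpf. Both fractions thus stood high at 96 and 192hpf and low at 72 and 120hpf. At 120 over 72hpf it was 4.68-fold higher in MG and 6.62-fold higher in C, with 23.5, 23.8, and 22.1 CPM in 120hpf C, against 3.82, 3.06, and 3.60 CPM in 72hpf C.

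Of a list of 46 clock symbols, 33 matched genes of the table, of which 7 were listed at 0 in all columns and 24 others besides dbpb and bhlhe41 were measured. In C at 120hpf, 20 of these 24 were called lower and 1 higher than at 96hpf (49.6% and 13.3% of all genes), with a median of -1.85 against -0.99 over all genes, and TMM scaling gave 12 lower and 3 higher. In C at 96hpf, 17 of 24 were called higher and 3 lower than at 72hpf, against 56.6% and 10.9% of all genes, with a median of 2.42 against 1.26 over all genes. TMM scaling gave 13 higher and 6 lower there, with a median of 1.26 against 0.28 over all genes. At least 2-fold above both 72 and 120hpf at 96hpf were 10 of 24 in MG and 16 of 24 in C, against 35.5% and 41.5% of all genes, and 9 in MG and 10 in C under TMM scaling, against 29.0% and 19.1%. The count in MG was thus near the share of all genes. At 120 over 72hpf, 5 of 23 measured clock genes were called higher in C and 4 lower, near the shares of all genes, whereas dbpb and bhlhe41 were both higher.

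The nuclear receptor gene nr1d1, a clock repressor singled out after its values were seen, averaged 14.6, 2737, 15.9, and 2203 CPM in MG at 72, 96, 120, and 192hpf and 110, 27.1, 2902, 91.4, and 1661 CPM in C at 60, 72, 96, 120, and 192hpf. It thus stood high at 96 and 192hpf and low at 72 and 120hpf in both fractions, as bhlhe41 did. The light-induced repressor per2, also singled out, went the other way in MG, at 1214, 221, 2089, and 63.6 CPM at 72, 96, 120, and 192hpf. In C, per2 averaged 423, 169, 212, and 44.1 CPM at the same stages. The gene just outside the level threshold, aanat1, averaged 0.341, 23.3, 0.539, and 49.6 CPM in MG and 0.0857, 5.54, 0.227, and 27.5 CPM in C at these stages. It met the other conditions of the rule, so its high level at 192hpf in both fractions is a description. By label, 72, 96, 120, and 192hpf lie whole days apart. The labels give neither the hour of fertilization or collection nor the light schedule, so stage and hour of the day cannot be told apart.

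**Figure D4:**
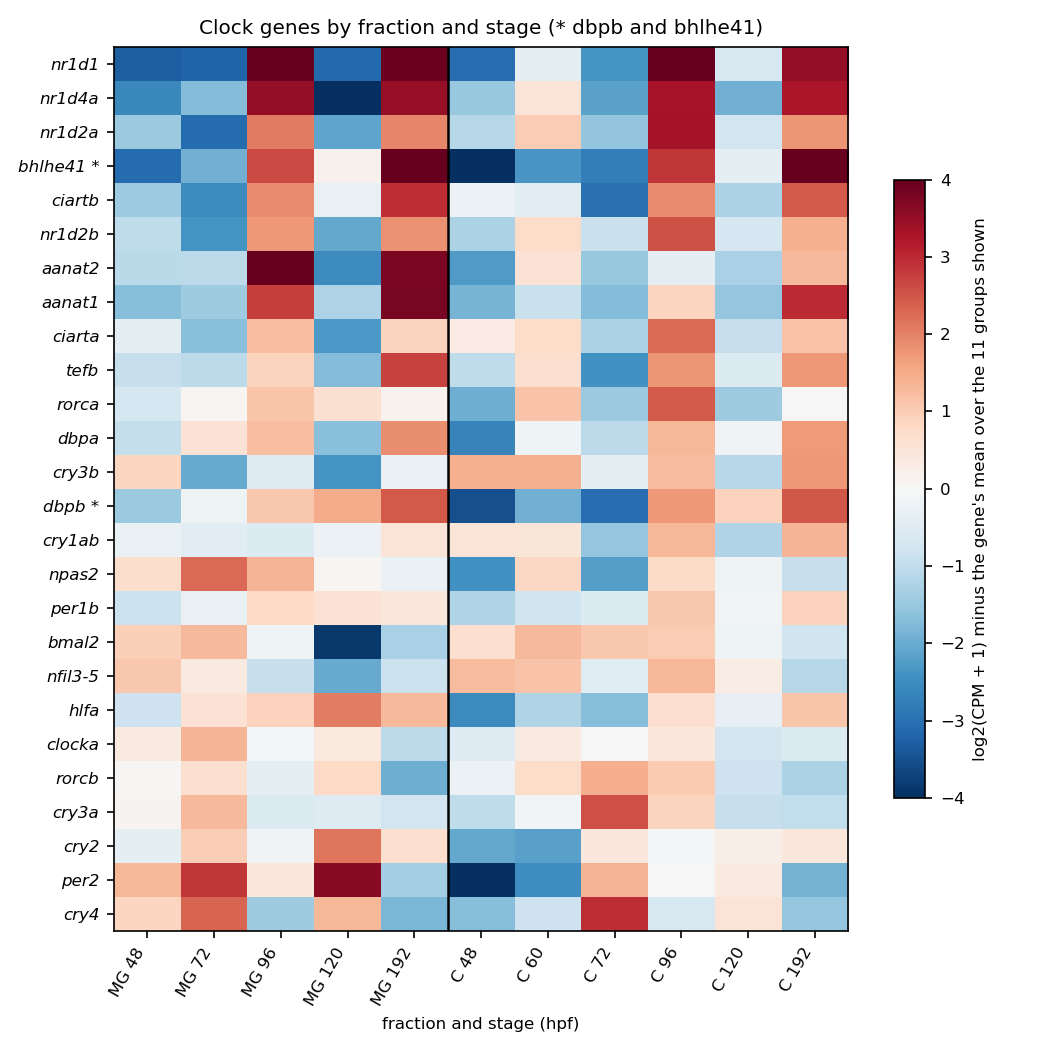
Levels of dbpb, bhlhe41 (asterisks), and 24 other genes of the clock list as log2(CPM + 1) minus the mean of each gene over the 11 groups shown, with MG left of the black line and C right of it, and 60hpf MG left out. Red is above and blue below the mean of the gene, and rows were ordered by the level at 96hpf minus that at 72 and 120hpf, so this order is no finding. In nr1d1 and bhlhe41 the columns of 96 and 192hpf are red in both fractions, and in per2 and cry4 72hpf is red and 192hpf blue.

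The p62 gene sqstm1, the receptor that links tagged cargo to autophagosomes, averaged 11.1, 97.0, 0.863, and 1218 CPM in MG at 72, 96, 120, and 192hpf. In C it averaged 31.5, 2.18, 217, 6.33, and 718 CPM at 60, 72, 96, 120, and 192hpf. Both fractions were thus lower at 72 and 120hpf than at 96 and 192hpf. In MG it had 0.797, 0.819, and 0.972 CPM at 120hpf, against 11.8, 11.7, and 9.62 CPM at 72hpf, a log2 difference of -3.68. In C it had 5.79, 5.71, and 7.49 CPM at 120hpf, against 1.91, 1.91, and 2.70 CPM at 72hpf, a 2.91-fold difference. The columns did not overlap in either fraction, and the fractions went opposite ways between these stages.

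The gene mrnip had the same order of stages as sqstm1 in both fractions, with 7.77, 51.0, 0.570, and 580 CPM in MG at 72, 96, 120, and 192hpf and 16.2, 1.58, 107, 4.49, and 335 CPM in C at 60, 72, 96, 120, and 192hpf. Outside 60hpf MG, mrnip had 0.417 to 0.726 of the CPM of sqstm1, and over these 11 groups their log2 levels had a Pearson r of 0.998, given as a description over groups that share depth and library. In RefSeq (GRCz12tu, not a build named for these data), sqstm1 and mrnip overlap. The deposited counts hold fractions of reads, with whole read numbers in 13 of 34 columns for sqstm1 and 11 of 33 for mrnip. Such fractions are common, as 33.7% to 56.6% of the values above 0 in a column outside 60hpf MG were whole. Whether the 2 genes shared reads was not tested. The counts of members given here hold both, so they may count 1 locus as 2 genes. The genes cldn2 and selenop also overlap other genes there (rbm41 and a long noncoding RNA).

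Among the genes of transport and metabolism, selenop, whose protein carries selenium to tissues, averaged 68.7, 197, 194, and 409 CPM in MG at 72, 96, 120, and 192hpf and was 2.83-fold higher at 120 than at 72hpf there. In C it averaged 23.1, 20.5, 186, 879, and 579 CPM at 60, 72, 96, 120, and 192hpf. It had 880, 878, and 879 CPM in 120hpf C, against 19.9, 19.6, and 21.9 CPM in 72hpf C, a 42.9-fold difference. The gene named BCO2 was also higher at 120 than at 72hpf in both fractions. In MG, BCO2 had 33.2, 32.4, and 37.0 CPM at 120hpf, against 7.04, 7.13, and 7.36 CPM at 72hpf, a 4.76-fold difference. In C, BCO2 had 21.0, 19.1, and 16.1 CPM at 120hpf, against 2.09, 1.79, and 2.11 CPM at 72hpf, a 9.39-fold difference.

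The prostaglandin D2 synthase gene ptgdsb.1 and the gene named PDE6H were at low levels up to 72hpf. In MG, ptgdsb.1 averaged 0.464, 40.5, 2.15, and 47.4 CPM and PDE6H averaged 0.564, 26.9, 3.196, and 78.7 CPM at 72, 96, 120, and 192hpf. In C, ptgdsb.1 averaged 0.185, 0, 9.06, 1.64, and 68.8 CPM and PDE6H averaged 0.181, 0.524, 9.67, 2.58, and 63.8 CPM at 60, 72, 96, 120, and 192hpf. Both genes stood high at 96 and 192hpf in both fractions. PDE6H had about 8 reads in 120hpf C, against 2 reads in 72hpf C, a ratio of 4.93 with an exact 95% interval for counting error of 1.008 to 48.8. The 23 measured cone markers summed to 8941, 209519, 6231, and 88983 CPM in MG at 72, 96, 120, and 192hpf. In C they summed to 936, 6916, 4518, and 5886 CPM at these stages. The sums leave out 5 of 28 matched cone genes listed at 0 in all columns. The part of cone cells in the values of PDE6H was not tested.

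The genes lrrfip1a and grb10a shared a course that differed from the rest. In MG, lrrfip1a averaged 94.6, 66.8, 4684, and 176 CPM at 72, 96, 120, and 192hpf, and in C 5.73, 22.6, 20.5, 1096, and 102 CPM at 60, 72, 96, 120, and 192hpf. At 120hpf its columns held 4672, 4682, and 4699 CPM in MG and 1098, 1092, and 1097 CPM in C. Relative to 72hpf, 120hpf was 49.5-fold higher in MG and 48.5-fold higher in C. The receptor adaptor gene grb10a averaged 590, 66.2, 1050, and 44.4 CPM in MG at 72, 96, 120, and 192hpf and 2.38, 55.8, 23.6, 366, and 69.0 CPM in C at 60, 72, 96, 120, and 192hpf. In grb10a, 120hpf was 1.78-fold higher than 72hpf in MG and 6.56-fold higher in C, and both genes had a lower level at 192 than at 120hpf in both fractions. In C, 60hpf was the lowest stage of both. Whole read numbers were found in 5 of 36 columns for lrrfip1a, 2 of 34 for grb10a, and also 2 of 34 for selenop. The other values hold fractions of a read, as counts of multi-mapped reads do.

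The Polycomb gene cbx7a averaged 0.513, 38.4, 14.4, and 213 CPM in MG at 72, 96, 120, and 192hpf and 8.28, 3.24, 102, 20.6, and 141 CPM in C at 60, 72, 96, 120, and 192hpf. At 120hpf cbx7a was 28.1-fold higher than at 72hpf in MG, which rested on about 4 reads in 72hpf MG and has no counting interval. In C it had 20.04, 19.0, and 22.8 CPM at 120hpf, against 3.57, 3.19, and 2.96 CPM at 72hpf, a 6.37-fold difference. In MG, the claudin gene cldn2 averaged 2.55, 96.2, 1.03, and 197 CPM at 72, 96, 120, and 192hpf. In C, cldn2 averaged 4.93, 0.853, 5.36, 3.85, and 108 CPM at 60, 72, 96, 120, and 192hpf, so that in C nearly the whole difference lay between 120 and 192hpf. At 120 over 72hpf, cldn2 had about 12 reads in 120hpf C, against 3 reads in 72hpf C, a ratio of 4.51 with an exact 95% interval for counting error of 1.36 to 27.9. The gene si:ch211-132b12.7 averaged 15.9, 58.2, 22.4, and 267 CPM in MG at 72, 96, 120, and 192hpf and 0.394, 4.69, 56.4, 36.4, and 234 CPM in C at 60, 72, 96, 120, and 192hpf. At 120hpf it was 1.40-fold higher than at 72hpf in MG and 7.76-fold higher in C.

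At 192hpf, markers of cornea and epidermis summed to 274 CPM in MG, against 66817 CPM in C, and those of pigment epithelium and pigment cells to 133 CPM in MG, against 5111 CPM in C. In C at the earlier stages these markers reached at most 5061 and 541 CPM, and their part in the levels of 192hpf C was not tested. The members were at similar levels in MG and C at 192hpf by the rule.

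The fractions were set against each other at the stages before 192hpf. In MG at 72hpf, 10 of the 11 measured members were called higher and 1 (cbx7a) lower than in C, against 29.1% and 28.9% of the 15202 genes tested, with medians of 1.85 over the members and 0.00 over all genes. The largest differences among the members were in grb10a, at 595, 589, and 586 CPM in MG, against 56.8, 56.0, and 54.6 CPM in C (10.6-fold), and in dbpb (7.53-fold). The lowest was in cbx7a, which had 0.523, 0.341, and 0.675 CPM in MG, against 3.57, 3.19, and 2.96 CPM in C, a ratio of 0.158 with an exact 95% interval for counting error of 0.0326 to 0.444. The genes sqstm1 (5.08-fold), mrnip (4.92-fold), lrrfip1a (4.19-fold), BCO2 (3.60-fold), si:ch211-132b12.7 (3.40-fold), and selenop (3.35-fold) lay between them, and bhlhe41 was 2.05-fold higher, close to the 2-fold limit. Under TMM scaling 9 were called higher and 1 lower.

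In MG at 96hpf, 5 of the 13 genes were called higher and 4 lower than in C, against 9.05% and 34.7% of the 15992 genes tested, with medians of 0.05 and -0.64. The 5 were cldn2, at 96.8, 96.1, and 95.8 CPM in MG, against 4.86, 4.33, and 6.90 CPM in C (17.9-fold), ptgdsb.1 (4.47-fold), lrrfip1a (3.26-fold), grb10a (2.80-fold), and PDE6H (2.78-fold). The 4 lower ones were sqstm1, mrnip, cbx7a, and BCO2, with log2 differences of -1.16, -1.07, -1.41, and -1.43. TMM scaling moved the median of all genes by 0.46 and left 5 higher and 0 lower. The rule used the levels of 96hpf C, so the contrast of the members with all genes at this stage is a description. Cone markers made up 209519 CPM of MG at this stage, and their part in these differences was not tested.

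In MG at 120hpf, 2 of the 13 genes (lrrfip1a and grb10a) were called higher and 4 (sqstm1, mrnip, selenop, and cldn2) lower than in C, against 25.4% and 40.1% of the 14986 genes tested. The medians were 0.31 over the members and -0.47 over all genes, and TMM scaling, which moved the median of all genes by 0.30, gave 3 higher and 4 lower. The gene lrrfip1a was 4.28-fold and grb10a 2.87-fold higher in MG. The low level of sqstm1 in MG rested on about 6 reads in MG, against 20 reads in C, a ratio of 0.136 with an interval of 0.0446 to 0.351. In selenop, MG had 193, 192, and 198 CPM, against 880, 878, and 879 CPM in C. Thus lrrfip1a and grb10a were higher in MG at 72, 96, and 120hpf, and sqstm1 and mrnip were higher in MG at 72hpf and lower at 96 and 120hpf. Under TMM scaling, sqstm1 and mrnip were not called at 96hpf, with log2 differences of -0.66 and -0.57. At 120hpf, pigment epithelium and pigment cell markers summed to 1815 CPM in MG, against 88.1 CPM in C, and their part in these differences was not tested.

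**Figure D5:**
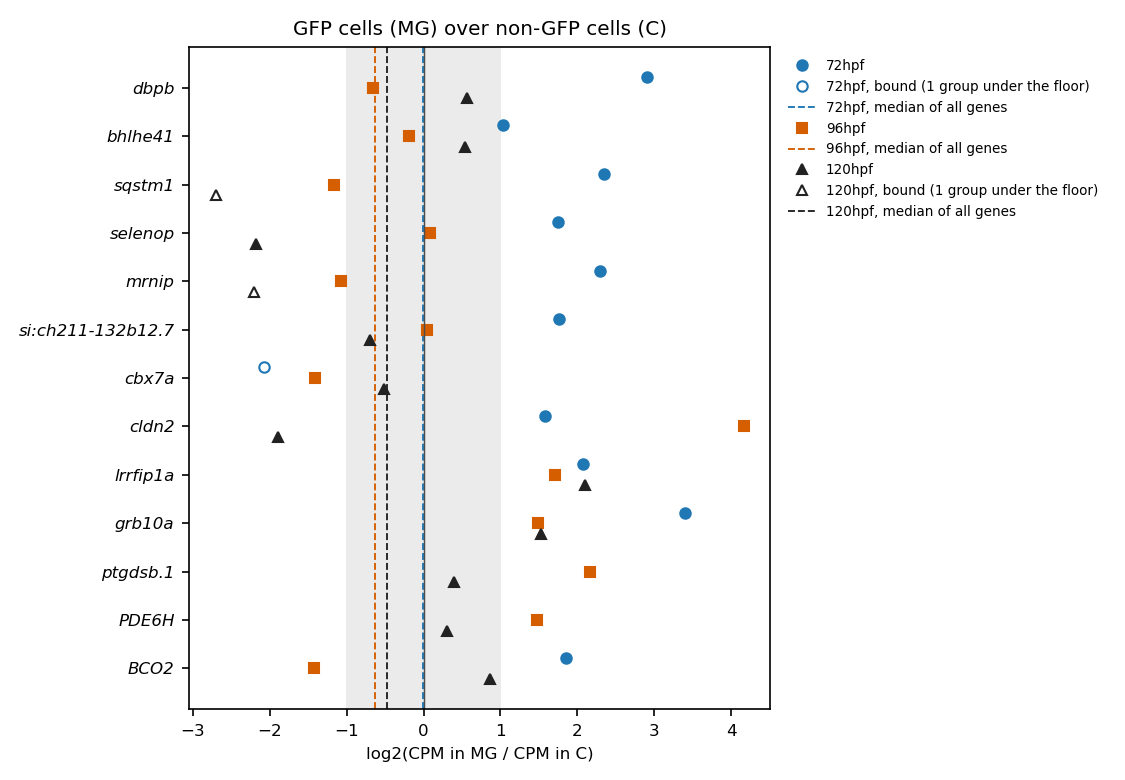
Log2 ratio of CPM in MG over C at 72hpf (circles), 96hpf (squares), and 120hpf (triangles) for each of the 13 genes, with dashed lines at the median of all genes and a grey band for less than 2-fold. Open symbols have MG under the floor, and genes under it in both fractions have no symbol. At 72hpf 10 of 11 symbols lie right of the grey band, and at 96 and 120hpf the genes lie on both sides.

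At 48hpf, the reads of 2 columns did not match their labels. In MG at 48hpf, grb10a had a mean of 21.6 CPM over columns 1 and 2 and 589 CPM in column 3, and dbpb had 14.3 and 177 CPM in these columns. The values of column 3 were thus near those of 72hpf MG, at 590 CPM for grb10a and 171 CPM for dbpb. In C at 48hpf, grb10a had a mean of 42.4 CPM over columns 1 and 2 and 21.3 CPM in column 3, against 2.38 CPM in 60hpf C. The gene dbpb was lower at 48hpf, at 18.6 and 11.8 CPM in these columns, against 51.2 CPM in 60hpf C.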

How the data were processed

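RNA-seq of sorted MG and C from pooled zebrafish eyes was used at 6 stages, in 12 groups of 3 columns. Per the labels, the build was GRCz10 and the tools were Trimmomatic, HISAT2, SAMtools, limma, DESeq2, and edgeR, whereas the methods of the study give Zv9. The authors deposited log2 CPM of 31540 genes, with a prior of 0.25 read and no TMM factor. Reads were recovered from the value steps, in which fractions of reads appear, at 63463 to 8889892 per column.

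Columns were compared by chi-square over genes with at least 20 reads and counted as 1 library a group. Genes at least 2-fold apart in mean CPM were called, with a floor of 3 reads of the shallower library. Floors and intervals cover counting error only. TMM trimmed log ratios at 0.3 and abundances at 0.05. Symbols (26073 of 31540 genes) came from a table of identifiers. The members and gene lists were chosen with earlier results of these data known, and comparisons between stages with 96hpf or 60hpf libraries were added after seeing the data. Named with values were the members with the 10 highest CPM in 192hpf C, the 5 highest and 5 lowest of each comparison, members of a list, and genes next to a threshold, which took in all 13 members.

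The alternatives were TMM scaling, a floor of 10 reads, no floor, a pseudocount of 1 CPM, other thresholds, leaving out each column, and limma 3.58.1 in R 4.3.3 on the 36 columns (18978 genes, Benjamini-Hochberg), with and without a replicate block. The remaining work was done in Python 3.11.15 (scipy 1.17.1, pandas 2.3.3, numpy 2.4.6, matplotlib 3.10.9), and the steps were tested on simulated data. Sequences and positions of the genes are not reported here.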

Additional observations from a re-analysis of the deposited data

Results flagged for a closer look

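In 3 of the 13 genes MG and C went opposite ways between 72 and 120hpf, and in 2 more between 96 and 120hpf, in all columns compared. How many of all genes did so was not counted, so these counts are a description. The medians of all genes for 120 over 72hpf were -0.40 in MG and 0.12 in C. With 1 library a group, the difference between the fractions was not tested. On the log2 scale, 120 over 72hpf was -3.68 in MG and 1.54 in C for sqstm1, -3.77 in MG and 1.51 in C for mrnip, and -1.30 in MG and 1.99 in C for cldn2, the last with 72hpf C set to the floor. The autophagy receptor gene sqstm1 and mrnip overlap in RefSeq, and whether they share reads was not tested. The 3 genes hold both. At 120hpf, sqstm1 rested on about 6 reads in MG and 20 reads in C, and mrnip on about 4 and 14. No counting interval was made for their 120 over 72hpf ratios. For BCO2, 120 over 96hpf was 1.72 in MG and -0.57 in C, and for dbpb it was 0.39 in MG and -0.83 in C. Under TMM scaling C turned to 0.30 in BCO2 and to 0.05 in dbpb, so these 2 went the same way as MG there.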

How the results depend on the processing

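The rule chose 40 genes with a difference of at least 3 between 192 and 60hpf and 4 with at least 5. With 1 column number left out it chose 11 to 14. At 192hpf the TMM factors were 1.46 to 1.48 in C and 1.12 to 1.13 in MG, so TMM scaling raises MG minus C there. Members near the upper limit, namely cldn2 (0.86), mrnip (0.79), lrrfip1a (0.79), and sqstm1 (0.76), thus depend on scaling by column totals. TMM scaling also lowers the level of 192hpf C, so BCO2 (5.39), just inside the limit of 5 on that level, depends on it too. TMM scaling gave members' medians of 2.43 (C, 120 over 72hpf), 1.88 (MG, 120 over 72hpf), 1.74, 0.55, and 0.73 (MG over C at 72, 96, and 120hpf, the first over the 12 members measured under that scaling), and called 0 members lower in MG at 96hpf. A pseudocount of 1 CPM gave medians of 2.42, 1.42, and 1.70 in the first 3 of these. A floor of 10 reads gave medians of 1.13 (MG, 120 over 72hpf) and -0.25 (MG over C at 120hpf, against 0.31 with 3 reads), and called 0 members lower in MG at 72hpf and 1 at 120hpf. The sign of a median thus turned there, and under TMM scaling also in C, at 0.05 for 120 over 96hpf (-0.83 otherwise) and 0.68 for 72 over 60hpf (-0.55 otherwise). Leaving out a column moved the median of MG over C at 96hpf between 0.0156 and 0.0726.

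The replicate numbers did not pair the columns (correlations of -0.04 to 0.03 over 30 pairs). By limma with an adjusted p under 0.05, MG was higher than C in 4 members and lower in 1 at 72hpf, in 3 and 2 at 96hpf, and in 1 and 2 at 120hpf, with and without the replicate block. With the block, 23.1% and 23.5%, 6.54% and 29.1%, and 19.9% and 37.4% of all genes were so. The rule used 96hpf C, so the contrast with all genes at 96hpf is a description. At 120 over 72hpf in C, 9 members were higher and 0 lower with and without the block, against 22.3% and 17.3% of all genes with it. These p-values measure the spread between columns, which is technical. It was wide at 48hpf and in the shallow 60hpf MG columns, where grb10a had 0, 47.3, and 0 CPM, and the fit took in both. Values under about 1 CPM rest on a few reads, and 1 library a group leaves every difference without a replicate.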
